A study of Mus musculus with 4 samples.

Results

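The genes of inhibitory neurotransmission were followed in the cerebellum of mice given the neonicotinoid insecticide clothianidin. These comprised receptors for GABA and glycine, the enzymes that make and break down GABA, the transporters of both transmitters, and the cotransporters that set neuronal chloride. They were the 27 members of a list of gene symbols, each represented by the probe set with the highest mean over the arrays. All 27 were measured, out of 19505 named genes on the array, and each had 1 probe set. They fell into 11 GABA-A receptor subunits, 2 GABA-B receptor subunits, 5 glycine receptor genes with their shared scaffold, 3 enzymes, 4 transporters and 2 chloride cotransporters. The mice were males of the C57BL/6N strain, 10 weeks old. Each group received its treatment by mouth for 4 days on which the animals also performed a rotarod task, which measures motor coordination. The vehicle group (replicates 7 and 9, n = 2) and the clothianidin group at 50 mg per kg per day (replicates 6 and 7, n = 2) had 1 Affymetrix array per sample. Brains were taken directly after the test, so both groups share the exercise, and no unexercised animals were analysed here. All values below are log2 array signals, and differences are clothianidin minus vehicle. The arrays are of bulk tissue, in which fewer cells of a type and less RNA per cell cannot be told apart.

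GABA and glycine are the main inhibitory transmitters of the brain. GABA-A and glycine receptors are pentameric chloride channels, GABA-B receptors are heterodimers coupled to G proteins, and the direction of the chloride current depends on the balance between a cotransporter that brings chloride in (Slc12a2) and one that takes it out (Slc12a5). In the cerebellum, Purkinje cells and the interneurons of the molecular layer release GABA, Golgi cells release GABA and glycine onto granule cells, and granule cells carry both synaptic and extrasynaptic GABA-A receptors.

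The gene for the chloride extruder, Slc12a5, had the member difference with the smallest unadjusted p, 1.87-fold higher with clothianidin (log2 difference 0.90 with a standard error of 0.27). The GABA-A receptor subunit gene Gabra3 stood apart in the other direction, 1.54-fold lower (-0.63 with a standard error of 0.28). The remaining genes were either less than 1.5-fold apart or overlapped between the groups. The GABA-synthesising enzymes, the vesicular transporter and most GABA-A receptor subunits differed by less than the larger of the 2 gaps between replicates of a group. No member passed limma's test at an adjusted p of 0.05, and neither did any of the 22206 probe sets (0.0%), with an adjusted p of 0.997 for every member. Before adjustment, 940 probe sets (4.23%) had a limma p under 0.05, and a linear model without moderation called 8 probe sets and no member. The comparison has 2 arrays against 2, for which the smallest p of an exact two-sided permutation test is 0.333.

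Because Slc12a5 and Gabra3 were the members that stood furthest apart without overlap, the sequences just before their transcription starts are shown. They are the 250 bases before the start, 5′ to 3′ on the strand of the gene, from RefSeq on GRCm38.p6. Capitals mark matches, on either strand, to 4 motifs: a GC box, a TATA element, an E-box and an AP-1 site, with the letters searched given below. No 2 matches in these windows overlapped. The table gives 2 starts for each gene, and for Gabra3, whose windows overlap, only the first is printed.
Slc12a5 first start (GRCm38.p6 chr2:164960596-164960845, plus strand): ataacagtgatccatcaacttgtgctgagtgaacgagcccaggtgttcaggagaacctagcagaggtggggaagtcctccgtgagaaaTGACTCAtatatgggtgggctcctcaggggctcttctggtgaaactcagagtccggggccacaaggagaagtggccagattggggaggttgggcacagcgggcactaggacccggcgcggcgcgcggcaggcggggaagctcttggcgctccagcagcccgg
Slc12a5 second start (GRCm38.p6 chr2:164967738-164967987, plus strand): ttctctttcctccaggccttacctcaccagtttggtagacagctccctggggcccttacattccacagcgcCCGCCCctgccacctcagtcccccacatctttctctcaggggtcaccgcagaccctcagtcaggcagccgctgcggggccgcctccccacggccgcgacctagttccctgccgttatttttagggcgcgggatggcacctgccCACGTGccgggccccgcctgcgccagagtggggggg
Gabra3 first start (GRCm38.p6 chrX:72656920-72657169, minus strand): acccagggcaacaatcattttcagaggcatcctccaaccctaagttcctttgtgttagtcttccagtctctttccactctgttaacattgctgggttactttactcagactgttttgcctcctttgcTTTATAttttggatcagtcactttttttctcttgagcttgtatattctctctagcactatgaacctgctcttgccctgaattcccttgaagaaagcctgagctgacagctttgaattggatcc
The first Slc12a5 window held 1 match to the AP-1 site TGANTCA, found in 6.75% of the 32851 promoter windows of this length. The second window held 1 match to the GC box GGGCGG, found in 32.7% of all windows. It also held 1 match to the E-box hexamer with the letters CACGTG, found in 6.02% of them. In the Gabra3 window there was 1 match to the TATA element, searched as TATAAA and found in 12.4% of all windows. The Slc12a5 windows were 61.2% and 67.2% G and C and the Gabra3 window 42.4%, beside a median of 52.4% over all windows. RefSeq windows were found for 23 of the 27 genes. They came to 31 windows, of which 15 held a GC box (48.4%) and 5 a TATA element (16.1%). The arrays gave 1 value per gene, so they do not tell which Slc12a5 start was used.

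As a group the 27 genes had no common direction. The mean was higher with clothianidin for 14 and lower for 13 (48.8% and 50.5% of all named genes), and the median difference was 0.04, beside -0.01 over all named genes. That median was 0.07 after centring each array on its median, but -0.05 after a further quantile normalization. The groups did not overlap for 7 members (25.9%), 5 of them higher and 2 lower, against 31.2% of all named genes, 15.5% higher and 15.7% lower. Only Slc12a5 and Gabra3 were also at least 1.5-fold apart, which is 7.41% of the members against 7.66% of all named genes (4.13% higher and 3.53% lower). At an unadjusted limma p under 0.05 there was 1 member, Slc12a5, where 4.23% of named genes reached that level. These shares are near the background, so the counts do not set these genes apart from the rest of the array.

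**Figure D1:**
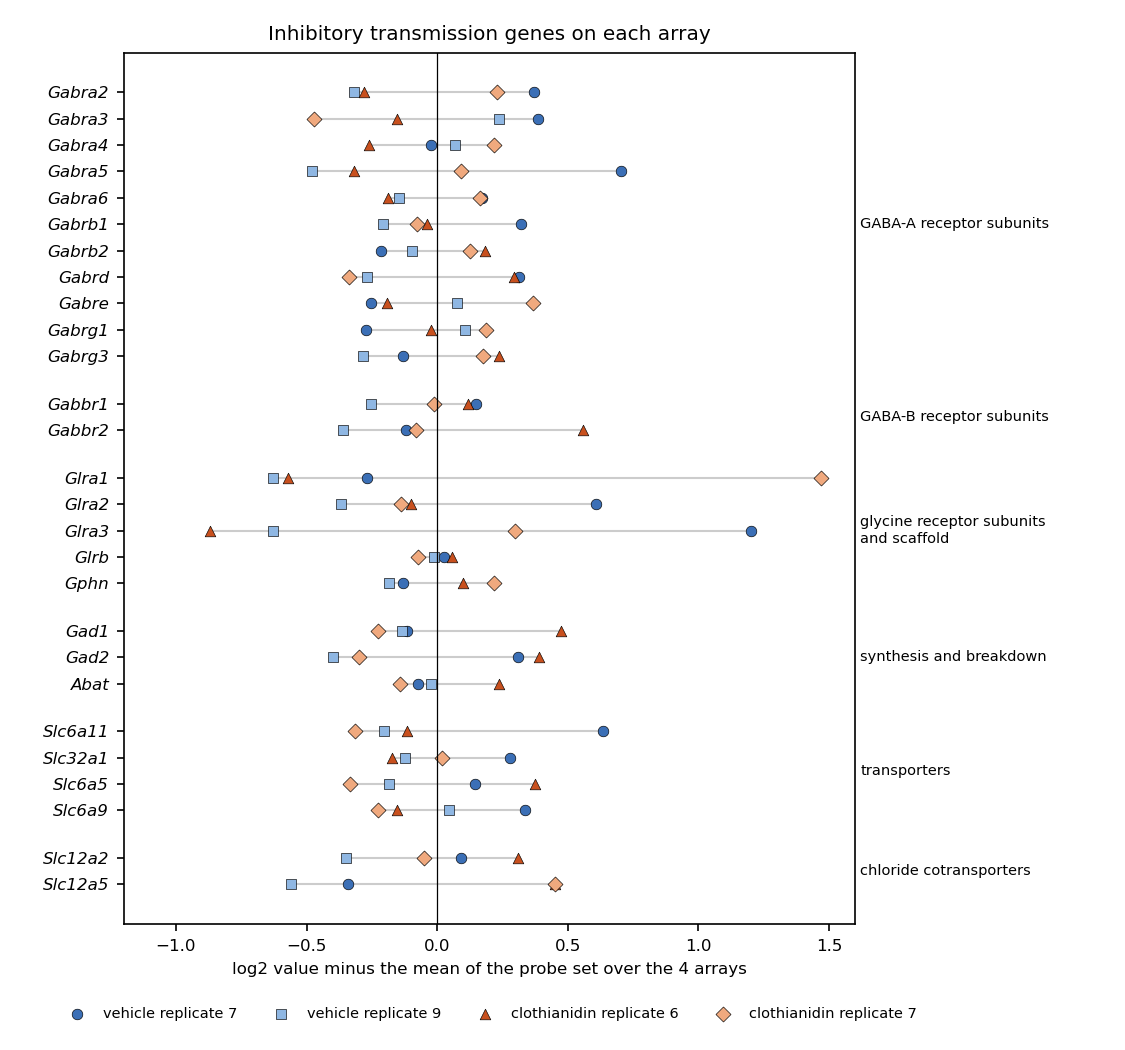
Log2 value of each of the 27 genes on each of the 4 arrays, minus the mean of its probe set over the arrays, by functional class. Circles and squares are vehicle replicates 7 and 9, and triangles and diamonds are clothianidin replicates 6 and 7. The clothianidin symbols lie together on the right for Slc12a5 and on the left for Gabra3, while Glra1 has 1 diamond far to the right and Glra3 is spread over all arrays.

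The plot of values by array shows that replicates of a group were often further apart than the groups. The larger of the 2 gaps between replicates had a median of 0.48 over the members (0.49 over all named genes), while the median size of the difference between groups was 0.23 (0.21 over all named genes). The difference exceeded both gaps for 6 members (22.2%), against 20.1% of all named genes. They were Slc12a5, Gabrg3, Gphn and Gabrb2 on the higher side and Gabra3 and Slc6a9 on the lower side.

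The arrays were also checked as cerebellum, the tissue the labels give, although the extraction protocol speaks of brain tissue. The Purkinje genes Calb1 and Pcp2, the granule cell genes Cbln1 and Cbln3 and the Bergmann glia gene Gdf10 had values of 14.29 to 17.20 on all arrays. Of 12 measured markers of brainstem and cerebellar nuclei, 9 lay at or below the level under which 95% of the 1414 olfactory and vomeronasal receptor probe sets lay (6.01). These receptors are silent in most brain tissue, so their probe sets serve as a guide to background, which no deposited detection call gives. Of the members, Gabra5, Gabre, Gabrg3, Glra2 and Glra3 had means at or below that level and are not shown to be detected. The brainstem and cerebellar nuclei genes Slc17a6 (8.02 to 9.57), Th (6.93 to 8.07) and Tph2 (7.48 to 9.82) lay above that level. Of 8 measured markers of midbrain and forebrain, 4 lay above it. Their summed level in log2 was 12.44 on vehicle replicate 7 and 11.23 to 11.50 on the other arrays, and Tcf7l2 stood at 11.70 on that array against 9.11 to 9.94. Ppp1r1b, at 10.39 to 10.75, was alike on all 4. On clothianidin replicate 7, the choroid plexus gene Ttr was at 13.96 against 5.67 to 6.38 elsewhere.

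GABA-A receptors are assembled from alpha, beta and further subunits, and the alpha subunit decides much of a receptor's place and pharmacology. Of the 11 subunit genes, 4 were higher and 7 lower, with a median difference of -0.05 and a range from -0.63 to 0.42, and 3 did not overlap between groups. Gabra6, the alpha subunit of cerebellar granule cells, read 17.41 and 17.09 under vehicle and 17.05 and 17.40 under clothianidin. Each group held 1 higher and 1 lower array, and the difference was -0.03 with a 95% interval from -0.69 to 0.64. Gabrd, whose product joins the Gabra6 subunit in the extrasynaptic receptors behind tonic inhibition of granule cells, read 10.99 and 10.41 under vehicle and 10.97 and 10.34 under clothianidin. The 2 groups thus covered almost the same range, with a difference of -0.05 and an interval from -0.83 to 0.74. Gabrb2, the beta subunit that accompanies them in granule cells, read 16.26 and 16.38 under vehicle and 16.66 and 16.60 under clothianidin. Both clothianidin arrays were above both vehicle arrays, but the difference of 0.31 had an interval from -0.31 to 0.93. Granule cell markers were highest on 1 array of the clothianidin group. Their median deviation from the mean over the arrays was 0.51 on clothianidin replicate 6 and -0.20 on replicate 7, against -0.07 and -0.39 with vehicle.

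Gabra3 encodes an alpha subunit that in the cerebellum is associated with Golgi cells and other interneurons more than with granule cells. It read 8.20 and 8.05 under vehicle and 7.66 and 7.34 under clothianidin. Both clothianidin arrays were below both vehicle arrays. The difference was -0.63 with an interval from -1.27 to 0.02 and an unadjusted limma p of 0.0557. It ranged from -0.79 to -0.47 when 1 array was left out. Groups that do not overlap keep their sign in such fits, so the range adds nothing on direction. The size depended on the arrays, since it was under 1.5-fold without vehicle replicate 7 (-0.55) and without clothianidin replicate 7 (-0.47). Markers of molecular layer and Golgi interneurons had 7 of 10 members higher and 3 lower, with a median difference of 0.34. Their median deviation was 0.38 on clothianidin replicate 6, but -0.18 on clothianidin replicate 7, where Gabra3 was lowest, against -0.08 and -0.10 with vehicle. Lhx5 alone of these 10 lay at or below the background guide. Markers of other regions had lower means with clothianidin more often, but many of them are not shown to be detected. Of the brainstem and cerebellar nuclei list 9 of 12 were lower, and 9 of the 12 lay at or below the background guide. Its summed levels were 10.34 and 10.62 under vehicle and 9.72 and 10.14 under clothianidin. The genes of this list above the guide went both ways. Slc17a6, the glutamate transporter of many brainstem neurons, read 9.57 and 8.62 under vehicle and 8.02 and 8.13 under clothianidin (difference -1.02). Th was higher without overlap, at 7.03 and 6.93 under vehicle and 8.07 and 7.74 under clothianidin (difference 0.93). Tph2 had a difference of -0.71 with overlapping groups. Of the midbrain and forebrain list 6 of 8 were lower, and 4 of the 8 lay at or below the guide. The part of interneurons and of other regions in the Gabra3 difference was not tested.

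Gabra2 and Gabra4, alpha subunits best known from the forebrain, showed overlapping groups. Gabra2 read 12.37 and 11.68 under vehicle and 11.72 and 12.23 under clothianidin (difference -0.05). Gabra4 read 8.93 and 9.02 under vehicle and 8.69 and 9.17 under clothianidin (difference -0.05). Neither gene had a group that lay wholly above or below the other. Gabra5, an alpha subunit enriched in the hippocampus, read 5.50 and 4.32 under vehicle and 4.48 and 4.89 under clothianidin. The gap of 1.18 between its vehicle arrays was several times its difference of -0.23, at a level not shown to be above background.

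Gabrb1, a further beta subunit, read 10.02 and 9.49 under vehicle and 9.66 and 9.62 under clothianidin, so the clothianidin values lay between the vehicle values (difference -0.12). Gabrg1, a gamma subunit found in Bergmann glia, read 8.97 and 9.35 under vehicle and 9.22 and 9.43 under clothianidin, again with overlap (difference 0.17). Gabrg3, another gamma subunit, read 5.75 and 5.60 under vehicle and 6.12 and 6.06 under clothianidin. Its groups did not overlap and its replicates were close, but it lay near the background guide. Its difference was 0.42 with an interval from -0.20 to 1.03. Gabre, an epsilon subunit sparse in the cerebellum, read 3.85 and 4.18 under vehicle and 3.91 and 4.47 under clothianidin, below the guide on all arrays.

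Many GABA-A receptor genes lie in clusters, and each listed subunit gene except Gabrd had another one beside it, or 1 named coding gene away, in RefSeq. In 3 of the 4 clusters, those with 2 listed genes, the neighbours had differences of opposite sign, but in each of them the sign of 1 gene turned with an array left out (Gabra5, Gabra6 and Gabre). Gabra5, Gabre and Gabrg3 are also not shown to be detected. On chromosome 7, Gabrg3 differed by 0.42 and its neighbour Gabra5 by -0.23. On chromosome 11, Gabrb2 differed by 0.31 and Gabra6 by -0.03. On the X chromosome, Gabra3 differed by -0.63 and Gabre by 0.18. The 4 genes of the cluster on chromosome 5, Gabrg1, Gabra2, Gabra4 and Gabrb1, had differences from -0.12 to 0.17, all with overlapping groups.

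The GABA-B receptor needs both of its subunits, Gabbr1, which binds GABA, and Gabbr2, which couples to the G protein. Gabbr1 read 16.33 and 15.93 under vehicle and 16.30 and 16.17 under clothianidin, so its clothianidin values lay within the vehicle range (difference 0.11). Gabbr2, which is abundant in Purkinje cells, read 15.84 and 15.60 under vehicle and 16.52 and 15.88 under clothianidin. Its groups stood apart by a margin of 0.04 between the nearest arrays, and its difference was 0.48 with an interval from -0.25 to 1.21. Leaving out clothianidin replicate 6 gave 0.16, and leaving out replicate 7 of that group gave 0.80. Purkinje cell markers were higher for 7 of 7 measured genes, with a median difference of 0.18. Their summed level in log2 was 19.31 and 19.16 in vehicle and 19.46 and 19.73 in clothianidin samples, and none lay at the background guide. Gabbr2 was highest on clothianidin replicate 6 and the Purkinje level on replicate 7, and the part of Purkinje content in the Gabbr2 value was not tested.

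Glycine receptors pair an alpha subunit with the beta subunit Glrb, through which the scaffold protein gephyrin, encoded by Gphn, anchors them. Gephyrin also anchors GABA-A receptors. Of these 5 genes 2 were higher and 3 lower with a median difference of -0.02, which was 0.01 after centring each array on its median. Gphn read 11.69 and 11.64 under vehicle and 11.92 and 12.04 under clothianidin, both clothianidin arrays above both vehicle arrays. The difference was 0.32 with an interval from -0.30 to 0.93, and it was 0.26 to 0.38 with 1 array left out. Glrb was the steadiest of the members, reading 15.35 and 15.31 under vehicle and 15.38 and 15.25 under clothianidin. Its difference of -0.02 had an interval from -0.63 to 0.60, since limma's error draws on all probe sets.

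Glra1, the alpha subunit of the adult brainstem and spinal cord receptor, read 7.09 and 6.73 under vehicle and 6.79 and 8.83 under clothianidin. Replicate 7 of the clothianidin group was thus alone above the rest, and clothianidin replicate 6 lay within the vehicle range. The mean difference of 0.90, 1.87-fold and as large as that of Slc12a5, had a standard error of 0.58 and an interval from -0.44 to 2.24. Without clothianidin replicate 7 it was -0.12, and without clothianidin replicate 6 it was 1.92. Clothianidin replicate 7 was also the array with high Ttr. The 6 measured choroid plexus markers had a summed level in log2 of 14.06 there against 9.58 to 9.98 on the other arrays, nearly all of it Ttr (13.96). Kcnj13 was also highest there, at 8.92 against 6.73 to 6.99, as was Folr1, at 6.05 against 4.62 to 5.24. Clic6 (8.72) and Kl (4.96) lay within the range of the other arrays, and Otx2 was lowest there (7.38 against 7.45 to 7.92). The means of Folr1 and Kl over the arrays lay below the background guide. Brainstem and cerebellar nuclei markers had a summed level of 10.14 on it, within the range of 9.72 to 10.62 on the other arrays. The part of choroid plexus content in the Glra1 value was not tested.

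The other glycine receptor alpha subunits, Glra2, known from developing brain, and Glra3, known from spinal cord and retina, were among the members not shown to be detected. Glra2 read 6.20 and 5.22 under vehicle and 5.49 and 5.45 under clothianidin. Glra3 read 5.20 and 3.37 under vehicle and 3.13 and 4.30 under clothianidin. Vehicle replicate 7 was the highest array for both, and without it their differences went from -0.24 to 0.25 and from -0.57 to 0.35.

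**Figure D2:**
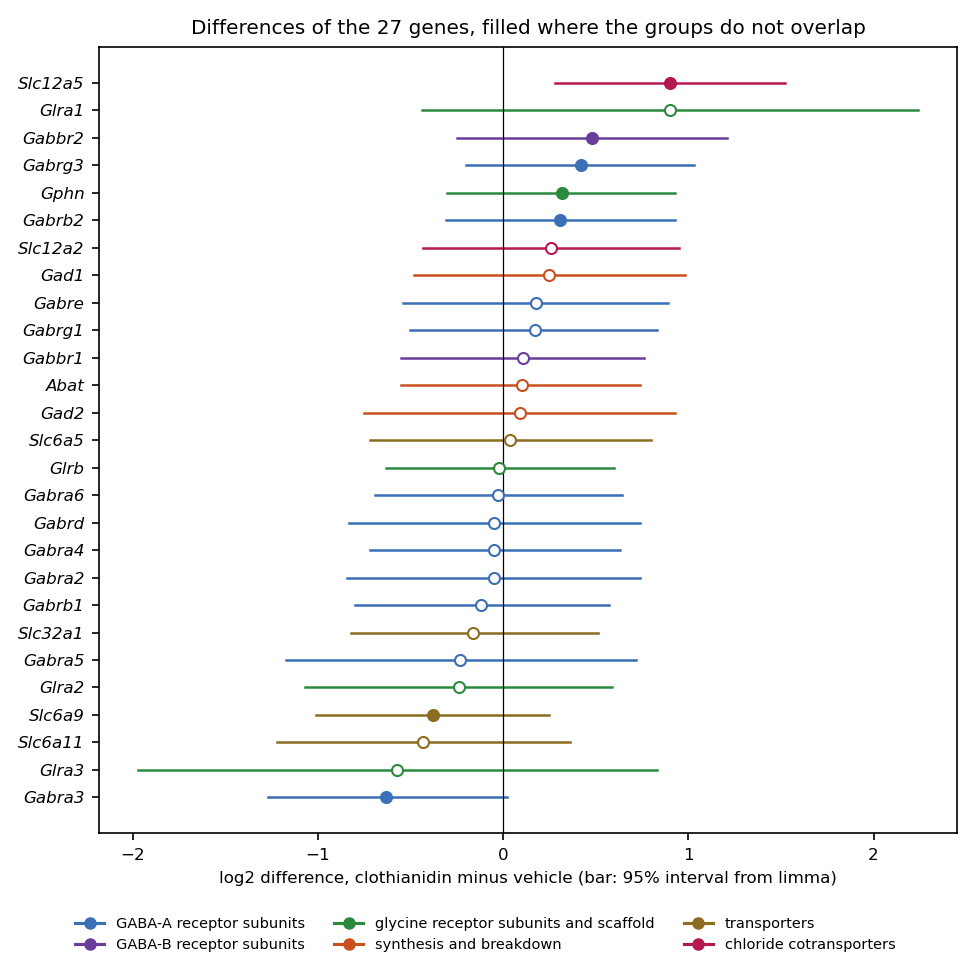
Log2 difference between clothianidin and vehicle for each of the 27 genes, ordered by size, with the 95% interval from limma as a bar and the class as colour. Filled points mark the 7 genes whose groups do not overlap. The interval of Slc12a5 (0.28 to 1.52) alone lies wholly on one side of 0, before adjustment over the 22206 probe sets.

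GABA is made from glutamate by the decarboxylases Gad1 and Gad2 and broken down by the transaminase Abat. All 3 genes had slightly higher means with clothianidin, and all 3 overlapped between the groups. Gad1 read 13.50 and 13.48 under vehicle and 14.09 and 13.39 under clothianidin, so clothianidin replicate 6 alone stood above the rest. Its difference of 0.25 had an interval from -0.48 to 0.98 and was -0.10 without clothianidin replicate 6. Gad2 read 12.58 and 11.87 under vehicle and 12.66 and 11.97 under clothianidin. Each group held 1 higher and 1 lower array, and the difference was 0.09 with an interval from -0.75 to 0.93. Abat read 15.20 and 15.25 under vehicle and 15.51 and 15.13 under clothianidin, with replicate 6 again highest and a difference of 0.10. The interneuron markers were highest on the same array, with a median deviation of 0.38 on clothianidin replicate 6 against -0.18 to -0.08 on the other arrays. The part of interneuron content in these values was not tested.

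Of the transporters, Slc32a1 loads GABA and glycine into synaptic vesicles and Slc6a5 takes glycine up into glycinergic terminals. Slc6a9 and Slc6a11 clear glycine and GABA mainly into astroglia. The neuronal pair showed overlapping groups. Slc32a1 read 12.43 and 12.03 under vehicle and 11.98 and 12.17 under clothianidin (difference -0.16). Slc6a5 read 10.21 and 9.88 under vehicle and 10.44 and 9.73 under clothianidin (difference 0.04, and -0.05 after quantile normalization). Both arrays of vehicle lay inside the clothianidin range for Slc6a5.

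The glial pair had lower means with clothianidin. Slc6a9 read 13.46 and 13.17 under vehicle and 12.97 and 12.90 under clothianidin. Its groups did not overlap, the difference was -0.38 with an interval from -1.01 to 0.25, and it was -0.53 to -0.24 with 1 array left out. Slc6a11 read 12.41 and 11.57 under vehicle and 11.66 and 11.46 under clothianidin, so vehicle replicate 7 alone stood above the rest. Its difference was -0.43 with an interval from -1.22 to 0.36, but -0.01 without vehicle replicate 7 and -0.85 without vehicle replicate 9. Bergmann glia and astrocyte markers were higher for 5 and lower for 5 of 10 genes with a median difference of 0.01. Their summed level in log2 was 19.27 and 19.09 in vehicle and 19.22 and 19.11 in clothianidin samples, and these groups overlapped. Of this list, 1 gene was lower and 1 higher without overlap. Gja1 was lower, at 13.99 and 13.88 under vehicle and 13.67 and 13.66 under clothianidin (difference -0.27). Hopx was higher, at 11.92 and 11.50 under vehicle and 11.98 and 12.48 under clothianidin (difference 0.52). Oligodendrocyte markers were lower for 9 of 9 genes with a median of -0.19, and Cnp (-0.73) and Mal (-0.50) did not overlap. Their summed level was 17.87 and 17.64 in vehicle and 17.82 and 17.44 in clothianidin samples. On vehicle replicate 7, where Slc6a11 was highest, Tcf7l2, Ppp1r1b, Slc17a6 and the midbrain and forebrain summed level were highest too. Other genes of these regions above the background guide, Neurod6, Otx2, Th and Tph2, were highest on other arrays. The summed level of the brainstem and cerebellar nuclei list was 10.34 on vehicle replicate 7 and 10.62 on vehicle replicate 9. The part of glia and of other regions in these values was not tested.

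The Slc12a5 product carries chloride out of mature neurons together with potassium and so keeps GABA and glycine inhibitory, while Slc12a2 carries chloride inward in immature neurons, glia and epithelia. Slc12a5 read 12.50 and 12.28 under vehicle and 13.29 and 13.29 under clothianidin. The clothianidin arrays gave the same value to 2 decimals, 0.79 above the higher vehicle array. The difference of 0.90 had an interval from 0.28 to 1.52 and an unadjusted limma p of 0.0105, with an adjusted p of 0.997. With 1 array left out it ranged from 0.79 to 1.01. That range follows from the gaps between replicates, 0.22 with vehicle and 0.00 with clothianidin. As for Gabra3, it adds nothing on direction. Slc12a2 read 12.20 and 11.76 under vehicle and 12.42 and 12.06 under clothianidin. Its groups overlapped, and the difference of 0.26 had an interval from -0.43 to 0.95 and was 0.04 without vehicle replicate 9 and 0.08 without clothianidin replicate 6. Among neuronal markers, the Purkinje list was higher on both clothianidin arrays. Its median deviations were 0.03 and 0.23 with clothianidin and -0.08 and -0.25 with vehicle. The granule cell list was higher for 7 of 9 genes and lower for 2. The lower ones, Cbln1 and Cbln3, overlapped between the groups, with differences of -0.16 and -0.24. Of the 9 genes, Zic2, Fat2 and Pax6 did not overlap, with differences of 0.97, 0.82 and 0.42. Of all named genes, 31.2% did not overlap. The summed level of the list was 19.16 and 18.91 with vehicle, and 19.59 and 18.93 on clothianidin replicates 6 and 7. The part of neuron content in the Slc12a5 value was not tested.

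**Figure D3:**
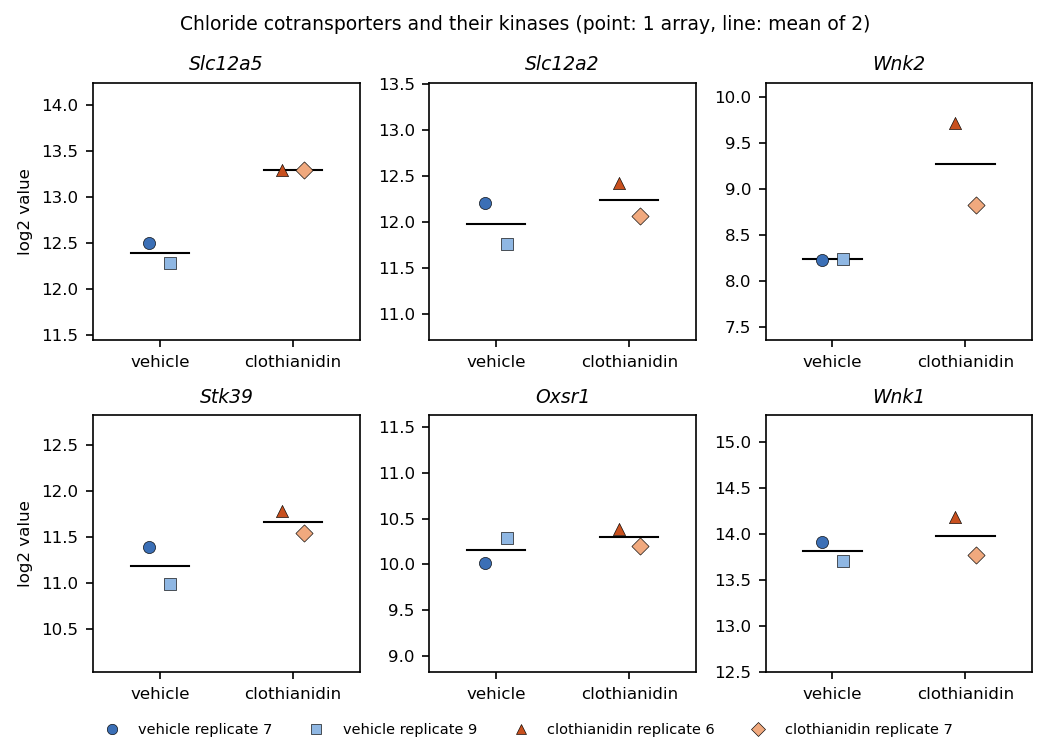
Log2 values of the chloride cotransporter genes Slc12a5 and Slc12a2 and of the kinase genes Wnk2, Stk39, Oxsr1 and Wnk1, by group. Each point is 1 array, symbols as named in the key, lines are means of 2, and every panel spans the same number of log2 units. Slc12a5, Wnk2 and Stk39 have both clothianidin points above both vehicle points, and the other 3 genes overlap.

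Kinases of the WNK family and their substrates Stk39 and Oxsr1 phosphorylate both cotransporters, which activates the chloride importer and inhibits the extruder. In the list of 9 measured genes of chloride regulation other than the cotransporters above, 5 were higher and 4 lower with a median of 0.14. Wnk2 read 8.23 and 8.24 under vehicle and 9.72 and 8.82 under clothianidin, a difference of 1.04 with an interval from 0.23 to 1.84 and an unadjusted limma p of 0.0178 (adjusted p = 0.997). A second probe set for Wnk2 did not show it, reading 7.64 and 8.32 under vehicle and 7.67 and 8.17 under clothianidin. The Wnk2 difference was 0.59 in the fit that left out clothianidin replicate 6. Stk39 read 11.39 and 10.98 under vehicle and 11.78 and 11.54 under clothianidin, a difference of 0.48. Oxsr1 and Wnk1 overlapped between groups, with differences of 0.14 and 0.17. Wnk3, which the figure leaves out, also overlapped, at 9.68 and 9.13 under vehicle and 9.41 and 9.31 under clothianidin (difference -0.05).

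A wider list of 60 other genes of inhibitory synapses held 54 with a probe set. Of these, 35 were higher and 19 lower, with a median difference of 0.15, and none passed limma's adjusted test. At least 1.5-fold apart without overlap were 9 (16.7%), 6 higher and 3 lower, where 7.66% of all named genes were, and 5 (9.26%) reached an unadjusted limma p under 0.05, as did 4.23% of all named genes. Besides Wnk2, the higher ones were Nlgn2, Insyn1, Plcl2, Kctd8 and Dld. Insyn1, a component of the inhibitory postsynaptic density that binds gephyrin, read 11.17 and 11.20 under vehicle and 11.84 and 11.71 under clothianidin. Its replicates were close, and the difference was 0.59. Nlgn2, an adhesion protein of inhibitory synapses, read 12.54 and 12.44 under vehicle and 13.57 and 12.70 under clothianidin. Its difference of 0.65 came mostly from clothianidin replicate 6, without which it was 0.21.

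Plcl2, which encodes a phospholipase C-like protein of GABA-A receptor trafficking, read 9.36 and 8.98 under vehicle and 10.13 and 9.66 under clothianidin (difference 0.73, and 0.49 without clothianidin replicate 6). Kctd8, an auxiliary subunit of GABA-B receptors, read 8.19 and 8.39 under vehicle and 9.18 and 8.62 under clothianidin (difference 0.61, and 0.33 without clothianidin replicate 6). Dld, a subunit of the glycine cleavage system that also serves pyruvate dehydrogenase, read 12.68 and 13.03 under vehicle and 13.55 and 13.76 under clothianidin (difference 0.80). For Nlgn2, Plcl2, Kctd8 and Wnk2 replicate 6 was the higher clothianidin array, on which the granule cell and interneuron markers were also highest, and for Dld it was the lower one. The part of those cells in these values was not tested.

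The lower ones were Gabrp, Gabrr1 and Slc6a17. The receptor subunit genes Gabrp and Gabrr1, known from peripheral tissue and retina, had differences of -0.72 and -0.70. All their values, from 2.48 to 4.79, lay below the background guide, so these transcripts are not shown to be detected. Slc6a17, a vesicular transporter of neutral amino acids, read 16.25 and 15.49 under vehicle and 15.42 and 14.96 under clothianidin. Its groups were 0.07 apart at the nearest arrays, and its difference of -0.68 was -0.30 without vehicle replicate 7, the array with high Tcf7l2.

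**Figure D4:**
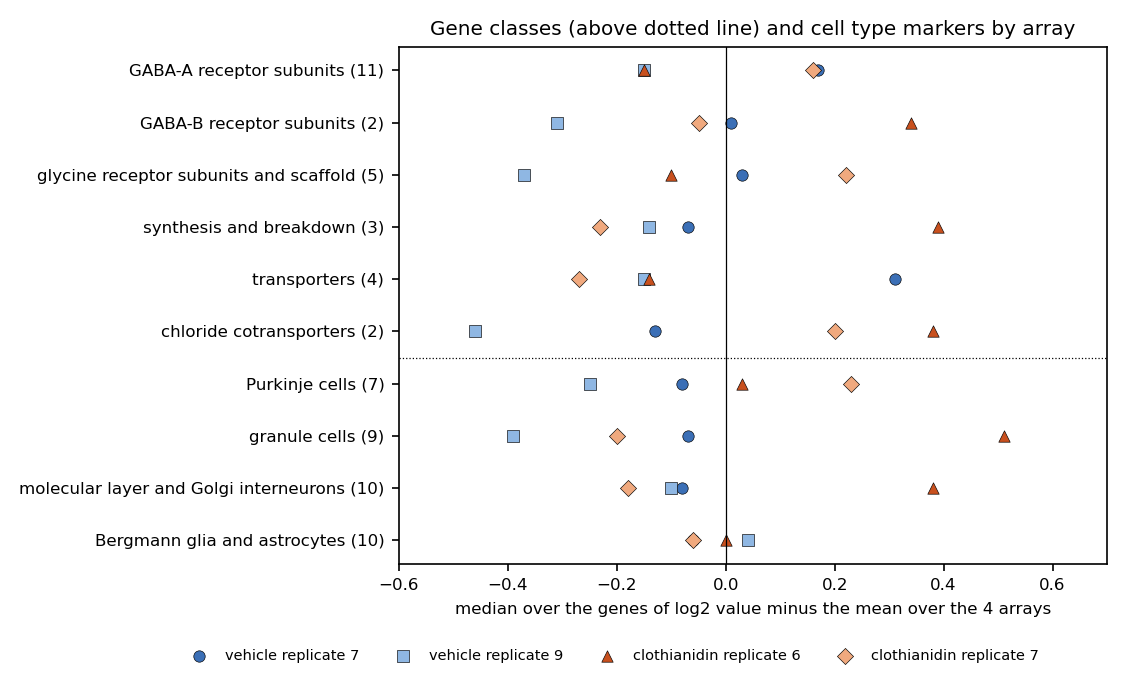
Median, over the genes of each class, of the log2 value minus the mean over the 4 arrays, with the number of genes in brackets. The 6 classes of inhibitory genes are above the dotted line and 4 cell type marker lists below it, and each symbol is 1 array. The chloride cotransporters and the Purkinje markers have both clothianidin symbols to the right of both vehicle symbols, whereas synthesis and breakdown, granule cell and interneuron genes stand apart on clothianidin replicate 6 only.

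By class, the median difference was 0.58 for the 2 chloride cotransporters, 0.29 for the GABA-B subunits, 0.10 for synthesis and breakdown, -0.02 for the glycine receptor genes, -0.05 for the GABA-A subunits and -0.27 for the transporters. With each array left out in turn, the sign of the class median held for the chloride cotransporters (0.42 to 0.75) and the GABA-B subunits (0.10 to 0.49). It turned for the other 4 classes. The classes where it held have 2 genes each, of which Slc12a5 (0.90) and Gabbr2 (0.48) had the larger differences. The other gene of each class was less steady. Without vehicle replicate 9, Slc12a2 differed by 0.04 and Gabbr1 by -0.10. Among single genes the sign held for 9 of 27, which were Slc12a5, Gabbr2, Gabrg3, Gphn, Gabrb2 and Slc12a2 on the higher side and Gabra3, Slc6a9 and Slc6a11 on the lower side. For the other 18 it turned with at least 1 array left out. Groups that do not overlap keep their sign whichever array is left out. That was so for 7 members, all among the 9, and 31.2% of all named genes also did not overlap. The count of 9 therefore does not set these genes apart.

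**Figure D5:**
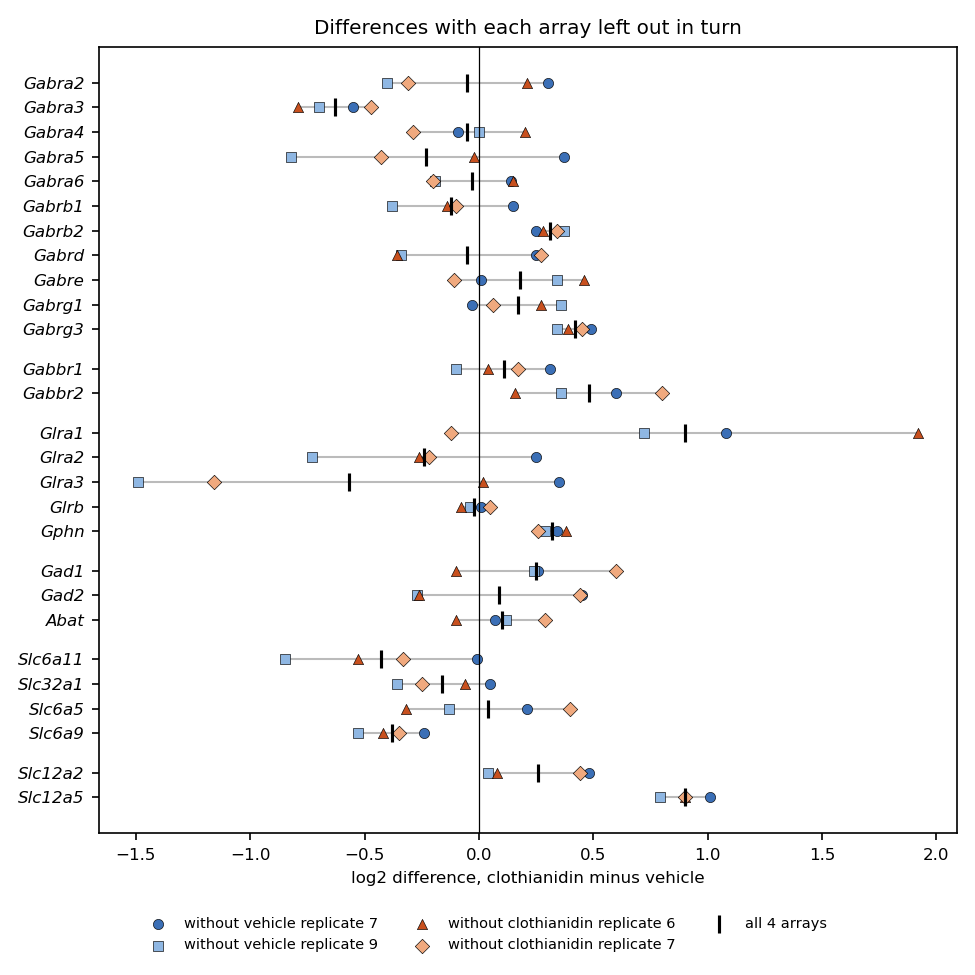
Log2 difference between clothianidin and vehicle for each gene with all 4 arrays (bar) and with each array left out in turn (symbols as in the key), by class. The symbols of Slc12a5, Gabrb2, Gabrg3, Gphn, Gabra3 and Slc6a9 lie close together. They stay on one side of 0, as those of groups without overlap must. The symbols of Glra1 run from -0.12 to 1.92 and those of Glra3 from -1.49 to 0.35.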

How the data were processed

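Total RNA from 4 cerebellum samples was labelled with GeneChip WT kits and put on 1 Affymetrix array per sample, following the labels' protocols. The authors deposited log2 probe set summaries to 2 decimals, computed with RMA according to the submitters' processing notes. The RMA version, settings and log base are not given in the sources used here, and the base was taken as 2, on which the folds rest. Scanner files were not used here, so the margin over background is not known, and the number of arrays limits the precision. No batch label was used. The labels call these separate samples and say no more, so a p-value reflects the spread between samples, which may be technical.

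Groups came from the sample titles. Of 22206 probe sets, 19572 had 1 gene symbol in the platform annotation, which can be old, 0 had several and 2634 had none, and gene identifiers matched to RefSeq (GRCm38.p6) changed 0 symbols. For the 55 symbols with several probe sets, the highest mean decided. Array medians were 6.49 to 6.54, and Pearson's r across probe sets was 0.986 to 0.989 between arrays. The groups were compared in R 4.3.3 by limma 3.58.1 (lmFit, eBayes) on all probe sets with Benjamini-Hochberg adjustment at 0.05, a procedure tested on simulated data. The prior SD was 0.306 with 5.96 prior and 2 residual degrees of freedom. Calls by size took at least 1.5-fold with no overlap between groups.

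The members and the lists were chosen with earlier results of these data known. All members were named, and of the other pathway genes those at least 1.5-fold apart without overlap. The kinase genes Stk39, Oxsr1, Wnk1 and Wnk3 were named after their values were seen. Of the other pathway genes listed, 6 had no named probe set and were not analysed here. Alternatives were centring, quantile normalization, filters on level, other eBayes priors, no moderation, other thresholds, the mean over probe sets of a gene, and leaving out each array.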

Additional observations from a re-analysis of the deposited data

How the results depend on the processing

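No member passed limma's adjusted threshold under any alternative fit, and the smallest adjusted p of a member in the refits by scaling, filter or left-out array was 0.831. For all probe sets the count was 0 in most fits, 8 without moderation and 0 to 1 with an array left out. At an unadjusted p under 0.05 there were 940 probe sets and 1 member. Members at least 1.5-fold apart without overlap numbered 2 with all arrays, 5 at 1.3-fold and 0 at 2-fold. With an array left out there were 3 to 6, since a group of 1 array overlaps less easily: 6 without vehicle replicate 9 and 4 without clothianidin replicate 7. The share over all named genes is given only at 1.5-fold with all arrays (7.66%). The counts at other settings have no such background and do not set the members apart. The median over the members was -0.10 to 0.25 with an array left out, the higher value without vehicle replicate 7.

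Slc12a5 and Gabra3 remained at least 1.5-fold apart under both scalings. Signs turned under a scaling for 4 members, all close to 0: Glrb at 0.01 after centring, and Gabbr1 at -0.01, Abat at -0.01 and Slc6a5 at -0.05 after quantile normalization. The filters on level left out 2 members at the 25th percentile and 5 at the median, where the glycine receptor class, reduced to fewer genes, had a median of 0.32. Taking the mean over probe sets of a gene changed no member, since each has 1.

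With an array left out, the class medians ranged from -0.19 to 0.20 for GABA-A subunits, -0.12 to 0.34 for glycine receptor genes, -0.44 to 0.02 for transporters and -0.10 to 0.44 for synthesis and breakdown. The members whose sign turned ranged from -0.40 to 0.30 for Gabra2, -0.29 to 0.20 for Gabra4, -0.82 to 0.37 for Gabra5, -0.20 to 0.15 for Gabra6, -0.38 to 0.15 for Gabrb1, -0.36 to 0.27 for Gabrd, -0.11 to 0.46 for Gabre and -0.03 to 0.36 for Gabrg1. The range was -0.10 to 0.31 for Gabbr1, -0.12 to 1.92 for Glra1, -0.73 to 0.25 for Glra2, -1.49 to 0.35 for Glra3 and -0.08 to 0.05 for Glrb. It was -0.10 to 0.60 for Gad1, -0.27 to 0.45 for Gad2, -0.10 to 0.29 for Abat, -0.36 to 0.05 for Slc32a1 and -0.32 to 0.40 for Slc6a5. The cause was not tested. In these fits the group with 1 array is assumed to vary like the other.

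No paired analysis was made. Replicate number 7 occurs in both groups, but the labels do not call those samples a pair.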
